A study of Nicotiana tabacum with 18 samples.

Results

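In the leaves of 2 tobacco F1 hybrids, 147 of 69500 annotated genes stood above both parents in both crosses at once. The 147 were chosen from the measured values by a rule on the log2(FPKM + 1) scale. FPKM is a level of expression in fragments, corrected for transcript length and library size. In each cross the lowest hybrid library had to lie above all 6 parent libraries, and the hybrid mean had to be at least 0.4 above the mean of each parent. The hybrid mean also had to reach an FPKM of 1 in both crosses, which 32691 genes did. Of these, 186 met the rule. Another 26 were then left out because a hybrid was at least 1 above both parents, and 13 because they belonged to a photosynthesis gene set read from a heat map of the study, which left 0.45% of the 32691 genes. Expression of a hybrid above its higher parent is a description that the rule fixes, so no test of hybrid against parent is given.

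The study addressed biomass heterosis of tobacco leaves. RNA was sequenced from leaf of 2 trios, the hybrid Va116×GDH94 beside Va116 and GDH94, its parents, and the hybrid K326×GDH88 beside K326 and GDH88, its parents, all 45 days after transplanting. There were 3 libraries for each of the 6 genotypes, 18 in all. The labels name no treatment, and leaves of several plants of a plot were mixed, so a library is an average over plants and cell types. The labels number the replicates and say nothing of separate plots, so p values measure the spread between these libraries only. In such bulk leaf RNA, a change in the share of a cell type and a change in RNA per cell cannot be told apart.

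Heterosis is the superiority of a hybrid over its parents. At the level of single genes, a hybrid can express a gene at the mean of its parents (additive), at the level of one parent (dominant), or outside the range of both (overdominant or transgressive). Overdominant genes found in 1 cross need not be overdominant in another, because the parents and the alleles they bring together differ.

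All 6 hybrid libraries had larger FPKM sums than all 12 parent libraries. The sums were 984296 to 1014325 in Va116×GDH94, against 945893 to 953051 in Va116 and 910305 to 914581 in GDH94. They were 972830 to 1062588 in K326×GDH88, against 887628 to 936804 in K326 and 941930 to 946270 in GDH88. Sequencing depth cannot be read from FPKM. The study lists read totals for the libraries of the Va116×GDH94 cross only. There the hybrid libraries had fewer clean reads than all parent libraries except the third Va116 library. NtLhcb2, which encodes a light-harvesting protein of photosystem II, was detected in every library, between 25.6 and 89.8 FPKM, as the leaf label implies. NtLhcb1, of the same kind, lay between 9.36 and 75.3 FPKM. NtrbcL, named for the large subunit of Rubisco, was lower, between 1.07 FPKM in a GDH88 library and 13.7 FPKM in a Va116×GDH94 library. NtLR25, a ribosomal protein gene used as a reference in tobacco, was 0.49 higher on the log2(FPKM + 1) scale in K326×GDH88 than in K326 and 0.39 higher than in GDH88, with no overlap of libraries, while Va116×GDH94 was -0.05 from Va116 and 0.01 from GDH94. The part of library scaling in the rise of the members was therefore looked at by other scalings of the libraries, given beside the results.

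The rule was met more often in one cross than in the other. In Va116×GDH94, 2030 genes (6.21% of 32691) met it, and in K326×GDH88, 859 genes (2.63%) did. The 186 genes that met it in both (0.569%) were 9.16% of the genes of Va116×GDH94 and 21.7% of those of K326×GDH88. The 1844 genes that met it in Va116×GDH94 only had a median difference of -0.04 between K326×GDH88 and its higher parent (quartiles -0.24 and 0.14), and 43.7% of them were above both parents there by their means, against 25.3% of all 32691 genes. The 673 genes that met it in K326×GDH88 only had a median of 0.00 in Va116×GDH94 (quartiles -0.30 and 0.20), and 50.4% were above both parents, against 37.7% of all genes. Opposite outcomes in the 2 hybrids were fewer in number than the 186. In 18 genes Va116×GDH94 was above both parents (of 2030 such genes) and K326×GDH88 below both (of 1979). In 27 genes Va116×GDH94 was below both parents (of 1081) and K326×GDH88 above both (of 859). The groups differ in size, so the counts alone do not measure how rare each outcome was. The mirror of the rule was met more often in K326×GDH88. There 1979 of the 32691 genes were below both parents, against 1081 in Va116×GDH94. The excess in Va116×GDH94 thus held for genes above both parents only. Below both parents in both hybrids were 134 genes, 12.4% of those of Va116×GDH94 and 6.77% of those of K326×GDH88.

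The members lay close to the limits of the rule. The smallest of the 4 hybrid-minus-parent differences of a member had a median of 0.48 and reached at most 0.87. It was between 0.4 and 0.5 in 85 members and at least 0.7 in 14. The nearest values on both sides of the lower limit were 0.4008 inside and 0.3981 outside, and 159 genes between 0.3 and 0.4 met every other condition. At the upper limit of 1 the nearest values were 0.99 inside and 1.01 outside. The smallest gap between the lowest hybrid library and the highest parent library was 0.0069 in a member, and the nearest gene outside had a gap of 0. The lowest hybrid mean of a member was 1.04 FPKM.

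In FPKM, the mean of Va116×GDH94 was a median of 1.55-fold that of its higher parent over the members (range 1.32 to 3.31), and the mean of K326×GDH88 was 1.51-fold that of its higher parent (range 1.33 to 2.99). A fold of at least 2 was reached by 14 members in Va116×GDH94 and by 9 in K326×GDH88. On the log2(FPKM + 1) scale, Va116×GDH94 was a median of 0.67 above Va116 and 0.77 above GDH94, and K326×GDH88 a median of 0.56 above K326 and 0.77 above GDH88. Over the 36573 genes whose mean reached 1 FPKM in some genotype, the same 4 medians were 0.06, -0.05, -0.08 and -0.12. The members spanned a wide range of levels. Their mean FPKM over the 18 libraries had a median of 18.7, against 6.43 over the 36573 genes. It was under 5 in 26 members, 5 to 50 in 87, 50 to 500 in 32 and 500 or more in 2.

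**Figure D1:**
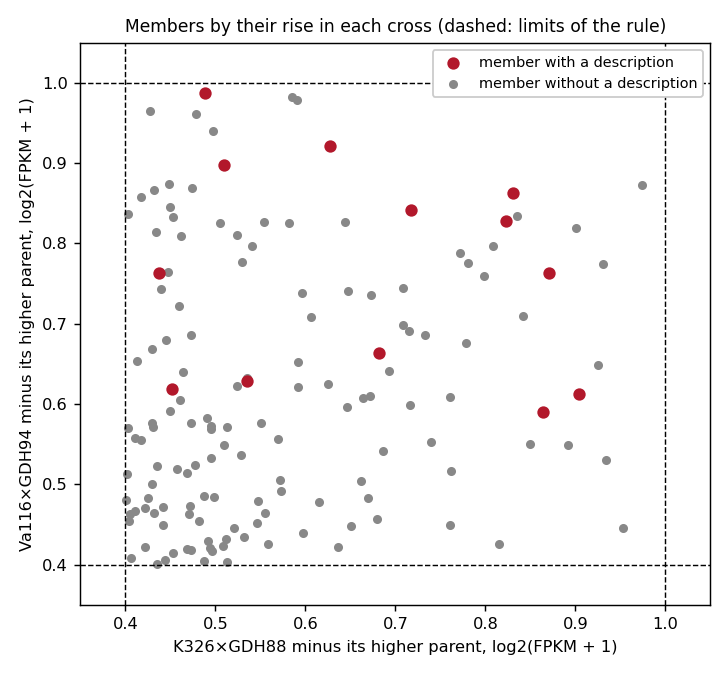
Each point is 1 of the 147 members, placed by the mean of K326×GDH88 minus that of its higher parent (x axis) and the mean of Va116×GDH94 minus that of its higher parent (y axis), both on log2(FPKM + 1). Red points are the 13 members with a description, dashed lines are the limits of 0.4 and 1 set by the rule, and the points crowd toward the lower limit, with medians of 0.52 for K326×GDH88 and 0.59 for Va116×GDH94.

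The rule compared each hybrid only with its own parents, but it selected on hybrid and parent values in both crosses, so the order of the 6 genotypes is a description. Both hybrid means were above all 4 parent means in 143 of the 147 members, and all 6 hybrid libraries were above all 12 parent libraries in 101. The highest mean was that of Va116×GDH94 in 71 members and that of K326×GDH88 in 76. The lowest mean was that of GDH88 in 58 members, of GDH94 in 48, of Va116 in 24 and of K326 in 17. The median level over the members was 28.7 FPKM in Va116×GDH94, against 15.7 in Va116 and 16.1 in GDH94, and 27.5 in K326×GDH88, against 17.8 in K326 and 14.4 in GDH88. A mean below 1 FPKM in at least 1 parent was seen in 8 members, so nearly all were expressed in every parent.

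Members differed among replicates of the hybrids in a common direction. The second K326×GDH88 library, which had the largest FPKM sum of all, was the highest of its 3 replicates in 128 of the 147 members (87.1%), against 11696 of the 36573 genes. The third Va116×GDH94 library, with the largest sum in its genotype, was highest in 92 members (62.6%), against 27.8% of all genes. In the other direction, the first K326 library, with the smallest sum of all, was the lowest K326 replicate in 96 members (65.3%), against 24.6% of all genes. Relative to a gene's mean over the 18 libraries, the median member stood at 0.37, 0.48 and 0.59 in the Va116×GDH94 libraries and at 0.39, 0.67 and 0.39 in the K326×GDH88 libraries. The parent libraries lay between -0.31 and -0.06, a separation that the rule itself fixes. Without the second K326×GDH88 library the rule was met by 99 genes, 91 of them among the 147. With this library and the first K326 library both left out, a check chosen after the data were seen, 93 genes met it, 77 of them among the 147.

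**Figure D2:**
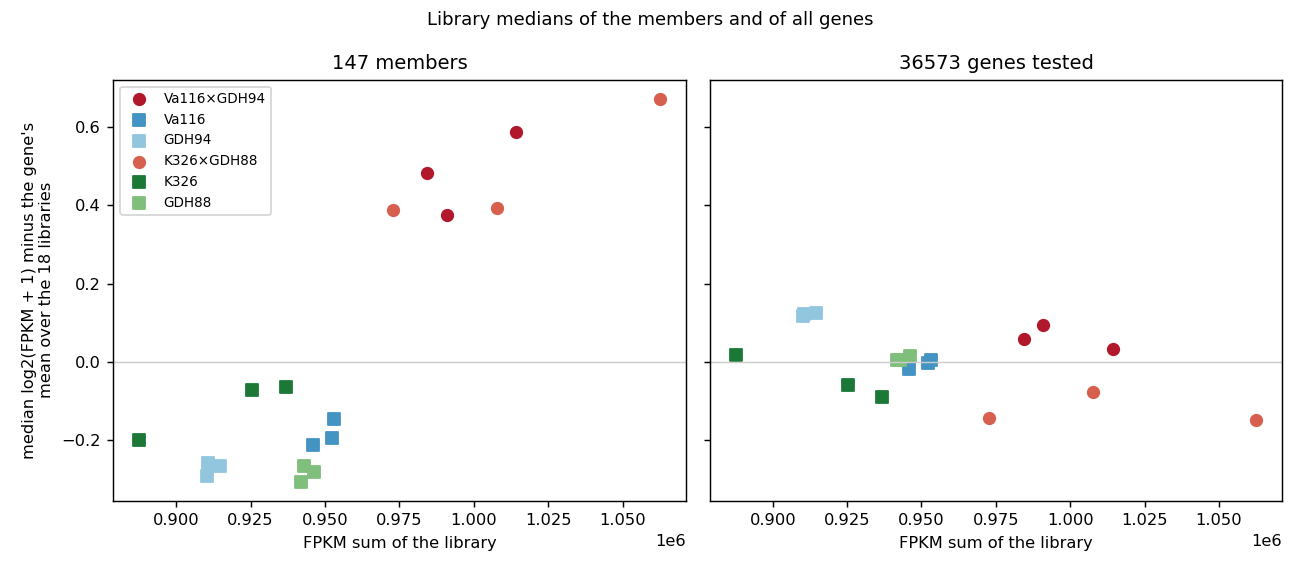
Each point is a library, placed by its FPKM sum (x axis) and by the median of log2(FPKM + 1) minus the gene's own mean over the 18 libraries (y axis), over the 147 members (left) and the 36573 genes tested (right). Circles are hybrids and squares are parents. The 6 hybrid libraries sit at 0.37 or more for the members and between -0.15 and 0.09 for all genes.

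The FPKM sums also bear on the list itself. When the libraries were scaled to equal FPKM sums, 62 genes met the full rule and 54 of them were among the 147. Median-ratio scaling gave 208 genes (120 shared) and quantile normalization gave 149 (99 shared). With equal sums the median difference from the higher parent was 0.51 in Va116×GDH94 and 0.40 in K326×GDH88, and all 3 hybrid libraries stayed above all 6 parent libraries in 140 and 123 members. The balance between genes above and below both parents turned with the scaling. As deposited, 186 genes were above and 134 below both parents in both hybrids, while 77 were above and 320 below with equal sums.

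Only 13 of the 147 members had a description, because descriptions were at hand only for genes in the study's sheets of hybrid-parent differences. Of these 13, 11 stood in the sheet of differences from Va116. They were thus listed for a change measured in these same libraries, and they are not a sample of the members. No identifier matched the RefSeq gene table, so the roles given here are those of the described domains and families. Of 12 keyword lists applied to the 13, transcription factors held the NAC gene, cell wall genes held the glycoside hydrolase, and the list of redox, folding and stress proteins held the LEA-5 gene. The other 9 lists, among them photosynthesis, respiration, protein kinases, translation and transport, held none of the 13. Since the 5 lists named covered 1.61% to 7.34% of the 1554 described genes of the sheet of differences from Va116, few or none would be counted among 13 genes, and the rule had itself left out photosynthesis genes.

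**Figure D3:**
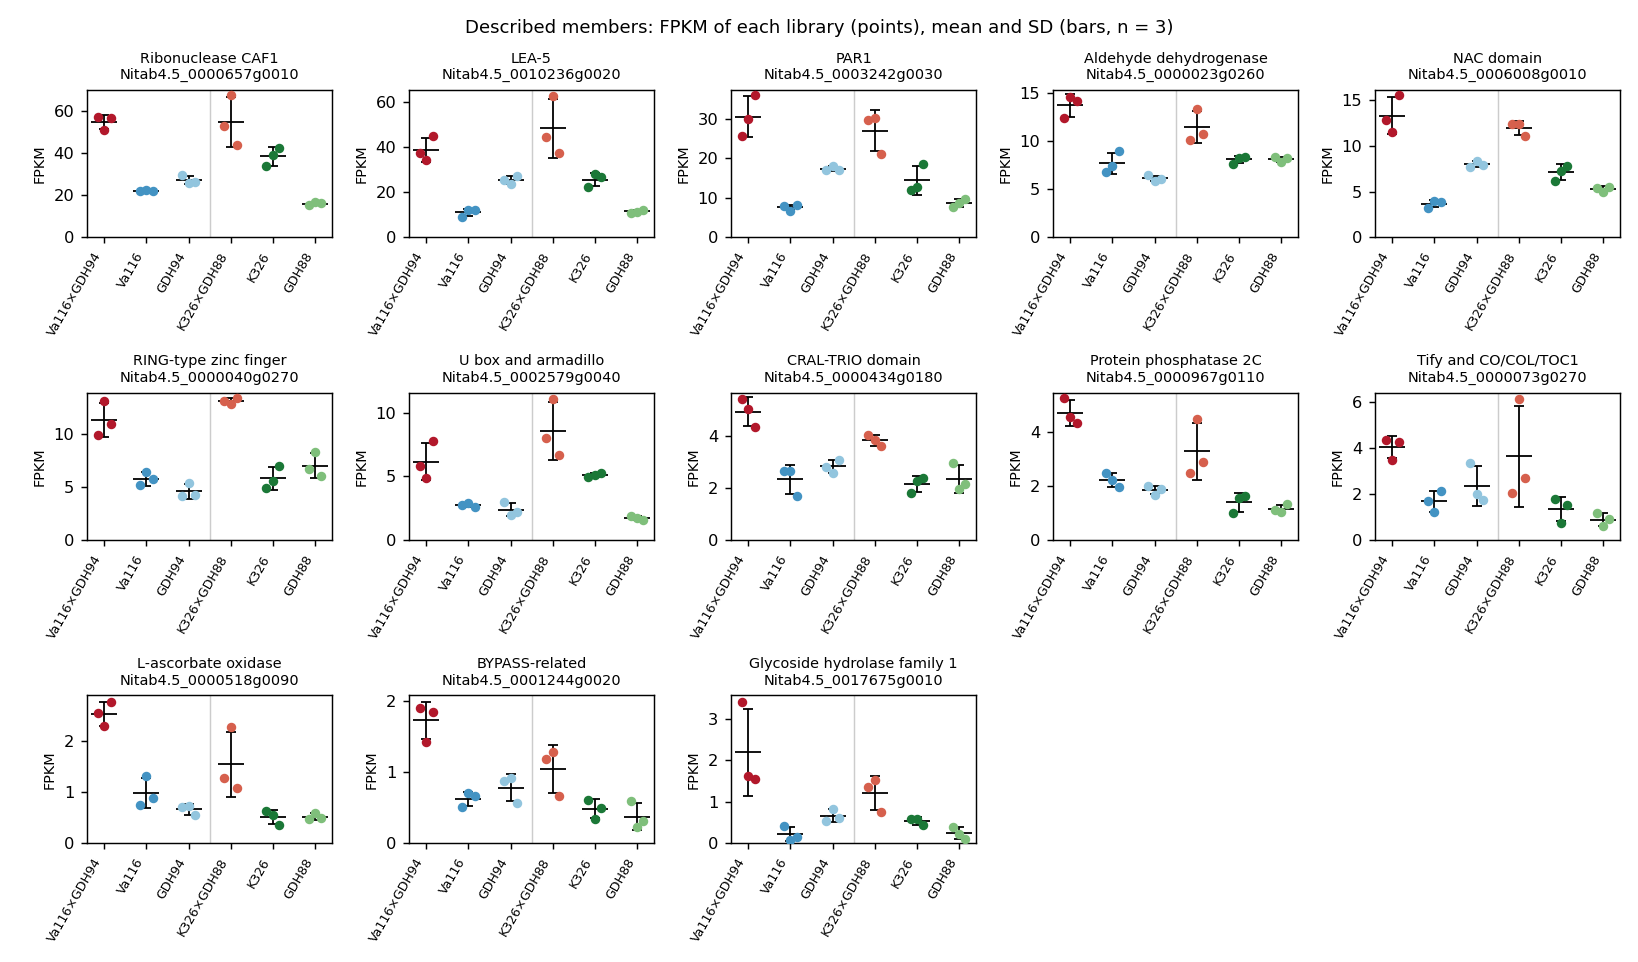
FPKM of the 13 described members in each library, with Va116×GDH94, Va116 and GDH94 left of the line in each panel and K326×GDH88, K326 and GDH88 right of it. Points are the 3 libraries of a genotype, bars are the mean and SD, each panel has its own axis starting at 0, and panels run from the highest mean, near 55 FPKM in both hybrids for the CAF1 gene, to the lowest, 1.20 to 2.19 FPKM in the hybrids for the glycoside hydrolase.

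Among genes of protein turnover and signalling, the RING-type zinc finger gene (Nitab4.5_0000040g0270) had, of the 13, the largest value of the smallest of the 4 differences. RING domains are common in ubiquitin ligases, which mark proteins for degradation. It had 9.94, 13.15 and 10.98 FPKM in Va116×GDH94, against 5.17, 6.42 and 5.74 in Va116 and 4.13, 5.40 and 4.26 in GDH94. In the other cross it had 13.2, 12.9 and 13.5 FPKM in K326×GDH88, against 4.93, 5.54 and 7.01 in K326 and 6.71, 8.33 and 6.02 in GDH88. Every hybrid library was above every parent library, and the 3 libraries of K326×GDH88 lay within a narrow range. The differences were 0.86 from Va116 and 1.14 from GDH94, and 1.06 from K326 and 0.83 from GDH88.

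The U box and armadillo gene (Nitab4.5_0002579g0040) carries another domain typical of ubiquitin ligases. It had 5.81, 4.89 and 7.76 FPKM in Va116×GDH94, against 2.73, 2.88 and 2.57 in Va116 and 3.00, 1.99 and 2.19 in GDH94. It had 8.03, 11.1 and 6.66 FPKM in K326×GDH88, against 4.94, 5.09 and 5.28 in K326 and 1.90, 1.75 and 1.56 in GDH88. Within the first cross the parents overlapped, while K326 was well above GDH88. The protein phosphatase 2C gene (Nitab4.5_0000967g0110) belongs to a family of serine/threonine phosphatases, several of which restrain abscisic acid signalling in Arabidopsis. It averaged 4.72 ± 0.48 FPKM in Va116×GDH94, against 2.22 ± 0.27 in Va116 and 1.85 ± 0.16 in GDH94, and 3.29 ± 1.07 FPKM in K326×GDH88, against 1.40 ± 0.35 in K326 and 1.17 ± 0.15 in GDH88 (SD, n = 3 each). Its spread was widest in K326×GDH88, where the second library had 4.5 FPKM.

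Among regulators of transcription and of RNA, the NAC domain gene (Nitab4.5_0006008g0010) encodes a member of a plant-specific family of transcription factors. It had 12.8, 11.5 and 15.5 FPKM in Va116×GDH94, against 3.21, 3.95 and 3.84 in Va116 and 7.68, 8.33 and 7.91 in GDH94. It had 12.4, 12.4 and 11.1 FPKM in K326×GDH88, against 6.12, 7.30 and 7.83 in K326 and 5.41, 4.90 and 5.49 in GDH88. GDH94 was the higher parent in its cross and K326 in the other, and the hybrids reached like levels. The CAF1 ribonuclease gene (Nitab4.5_0000657g0010) encodes a subunit type that shortens the poly(A) tails of mRNA in the CCR4-NOT complex. It had 57.2, 51.0 and 56.8 FPKM in Va116×GDH94, against 21.9, 22.7 and 22.1 in Va116 and 29.5, 25.9 and 26.4 in GDH94. In K326×GDH88 it had 53.1, 67.7 and 44.1 FPKM, against 33.9, 39.0 and 42.5 in K326 and 15.2, 16.7 and 16.1 in GDH88. The lowest K326×GDH88 library was only slightly above the highest K326 library, whereas the first cross was widely separated.

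The gene with a Tify domain and a CO/COL/TOC1 site (Nitab4.5_0000073g0270) has a combination found in the JAZ repressors of jasmonate signalling in Arabidopsis. It had 4.35, 3.48 and 4.25 FPKM in Va116×GDH94, against 1.68, 1.22 and 2.14 in Va116 and 3.33, 1.99 and 1.72 in GDH94. It had 2.06, 6.12 and 2.70 FPKM in K326×GDH88, against 1.77, 0.75 and 1.54 in K326 and 1.16, 0.59 and 0.92 in GDH88. The second K326×GDH88 library was far above its replicates, and the first GDH94 library came close to the hybrid. The gene still met the rule without the second K326×GDH88 library, which the CAF1, BYPASS-related and aldehyde dehydrogenase genes did not. It failed the rule without the first K326 library, with quantile normalization, with equal FPKM sums, and with 0.1 in place of 1 added to the FPKM. The CAF1 gene also failed it with median-ratio scaling, quantile normalization and equal FPKM sums.

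Of the genes linked to stress and to metabolism, the LEA-5 gene (Nitab4.5_0010236g0020) encodes a late embryogenesis abundant protein, a kind of protein that accumulates in maturing seeds and in water deficit. It had 37.4, 34.2 and 44.7 FPKM in Va116×GDH94, against 9.15, 11.9 and 12.0 in Va116 and 25.5, 23.4 and 27.0 in GDH94. It had 44.5, 62.7 and 37.4 FPKM in K326×GDH88, against 22.2, 28.0 and 26.5 in K326 and 10.9, 11.2 and 12.1 in GDH88. The higher parents, GDH94 and K326, had close levels, and so did the lower parents, Va116 and GDH88. The PAR1 gene (Nitab4.5_0003242g0030), described by its family name alone, had the same arrangement. It had 25.6, 30.1 and 36.0 FPKM in Va116×GDH94, against 7.86, 6.78 and 8.07 in Va116 and 17.1, 18.2 and 17.0 in GDH94. It had 29.8, 30.4 and 21.1 FPKM in K326×GDH88, against 12.0, 12.7 and 18.6 in K326 and 7.71, 8.78 and 9.68 in GDH88. The third K326 library lay close below the third K326×GDH88 library.

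The aldehyde dehydrogenase gene (Nitab4.5_0000023g0260), of a family that oxidizes aldehydes to acids, averaged 13.8 ± 1.2 FPKM in Va116×GDH94, against 7.72 ± 1.10 in Va116 and 6.13 ± 0.28 in GDH94, and 11.4 ± 1.7 FPKM in K326×GDH88, against 8.11 ± 0.38 in K326 and 8.14 ± 0.26 in GDH88 (SD, n = 3 each). Its K326×GDH88 difference was 0.44 from either parent, near the limit of the rule. The CRAL-TRIO gene (Nitab4.5_0000434g0180), of a family that binds small lipids, averaged 4.92 ± 0.55 FPKM in Va116×GDH94, against 2.32 ± 0.56 in Va116 and 2.82 ± 0.24 in GDH94, and 3.82 ± 0.22 FPKM in K326×GDH88, against 2.15 ± 0.30 in K326 and 2.35 ± 0.53 in GDH88 (SD, n = 3 each). Both genes had parents at like levels in the K326 cross.

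The remaining 3 described members averaged under 1 FPKM in every parent, where a pseudocount of 1 compresses differences. The L-ascorbate oxidase gene (Nitab4.5_0000518g0090), a multicopper oxidase of the type that oxidizes ascorbate in the cell wall space, averaged 2.53 ± 0.24 FPKM in Va116×GDH94, against 0.98 ± 0.29 in Va116 and 0.66 ± 0.10 in GDH94, and 1.54 ± 0.64 FPKM in K326×GDH88, against 0.51 ± 0.14 in K326 and 0.51 ± 0.07 in GDH88 (SD, n = 3 each). The BYPASS-related gene (Nitab4.5_0001244g0020) averaged 1.73 ± 0.26 FPKM in Va116×GDH94, against 0.62 ± 0.10 in Va116 and 0.78 ± 0.19 in GDH94, and 1.04 ± 0.34 FPKM in K326×GDH88, against 0.48 ± 0.14 in K326 and 0.37 ± 0.19 in GDH88 (SD, n = 3 each). In Arabidopsis, BYPASS1 holds back a root-derived signal that arrests shoot growth. The glycoside hydrolase family 1 gene (Nitab4.5_0017675g0010), a family that includes β-glucosidases, had 3.39, 1.62 and 1.55 FPKM in Va116×GDH94, against 0.41, 0.08 and 0.15 in Va116 and 0.54, 0.83 and 0.61 in GDH94. Its mean was lower in K326×GDH88, near the limit of 1 FPKM set by the rule. These low values rest on an unknown number of fragments. With a pseudocount of 0.1 in place of 1, the differences were larger, and 6 of the 13 described members still met the rule. The other 7, the CAF1 gene among them, were then at least 1 above both parents in a cross and passed its upper limit. The glycoside hydrolase gene was then 1.52 above its higher parent in Va116×GDH94 and 1.00 in K326×GDH88.

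Of the 134 members without a description, the one with the largest value of the smallest difference was Nitab4.5_0001062g0050. It averaged 40.8 ± 5.4 FPKM in Va116×GDH94, against 21.7 ± 1.5 in Va116 and 19.8 ± 1.1 in GDH94, and 38.4 ± 8.2 FPKM in K326×GDH88, against 18.8 ± 1.5 in K326 and 13.5 ± 0.57 in GDH88 (SD, n = 3 each). Its hybrid libraries lay at 32.6 FPKM or above and its parent libraries at 22.7 FPKM or below. The most highly expressed member was Nitab4.5_0004953g0010. It had 1625, 1792 and 2109 FPKM in Va116×GDH94, against 1101, 1145 and 1140 in Va116 and 760.2, 772.2 and 780.3 in GDH94, and 1749, 2491 and 1490 FPKM in K326×GDH88, against 910.6, 1389 and 1173 in K326 and 1123, 1079 and 1056 in GDH88. In this gene the second K326×GDH88 library was again the highest and the first K326 library the lowest of its genotype.

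One undescribed member, Nitab4.5_0010112g0010, singled out after its values were seen, was listed at 0 in all 3 GDH94 libraries. It had 32.1, 34.8 and 42.1 FPKM in Va116×GDH94, against 18.7, 20.2 and 19.2 in Va116. It had 34.4, 38.4 and 34.3 FPKM in K326×GDH88, against 20.8, 18.9 and 21.9 in K326 and 24.9, 27.8 and 25.9 in GDH88. The 2 hybrids were thus at like levels although 1 of the 4 parents had no value above 0, and no fold change against GDH94 is given. The members were spread over 143 scaffolds of the genome, and 4 scaffolds held 2 members each. Of these pairs, 1 was adjacent, with 0 genes listed between, and its genes had 15.4, 24.1 and 13.4 FPKM and 175.6, 239.4 and 166.0 FPKM in K326×GDH88, against 8.40, 9.17 and 9.91 FPKM and 106.2, 140.9 and 128.5 FPKM in K326.

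The photosynthesis genes that the rule left out gave a frame for the members. Of 97 genes of that heat map present in the table, 37 met the rule in Va116×GDH94, 25 in K326×GDH88 and 13 in both. The 13 were 5 Psa genes of photosystem I, 4 Lhcb and 2 Lhca genes of the light-harvesting antennae, 1 Psb gene of photosystem II and 1 FBP gene of the fructose-bisphosphatase family. The heat map was drawn up by the study from Va116×GDH94, so its count in that cross is not independent of these libraries. The 6 genes listed as rbcl, for the large subunit of Rubisco, met the rule in 5 cases in Va116×GDH94 and in none in K326×GDH88. With the heat map genes kept, the list held 160 genes.

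The rule set no limit on the difference between 2 parents or between 2 hybrids. It did select on the levels and the spread of these same libraries, so the share of members called is not independent of the rule. The differences were tested with limma over all genes whose mean reached 1 FPKM in some genotype of the fit, at a Benjamini-Hochberg adjusted p under 0.05. All 147 members were tested in each comparison.

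Between Va116 and GDH94, 48 members (32.7%) were called as deposited, against 44.3% of 36068 genes tested. Whether this share lay below or above that of all genes depended on the scaling, as given below. Of the members, 34 were higher in Va116 and 14 lower, whereas 13.0% of all genes were higher and 31.4% lower. The median difference was 0.09 in the members and -0.13 over all genes. The PAR1 gene fell by 1.11 ± 0.11 (SE, adjusted p = 6.06e-05), the LEA-5 gene by 1.14 ± 0.12 (adjusted p = 7.75e-05) and the NAC gene by 0.95 ± 0.11 (adjusted p = 0.000113) in Va116 relative to GDH94 on the log2(FPKM + 1) scale. The CAF1 gene was lower in Va116 by a smaller amount (-0.28 ± 0.06, adjusted p = 0.00614), and the aldehyde dehydrogenase gene was higher in Va116 (0.28 ± 0.10, adjusted p = 0.0388). The CAF1 call was lost with median-ratio scaling and with all 18 libraries in 1 fit, and the aldehyde dehydrogenase call in 5 of the 6 fits without 1 parent library. With quantile normalization, 63 of the 147 members were called, against 39.8% of all genes. Median-ratio scaling called 70 of the 147, also a larger share than of all genes. With equal FPKM sums 46 were called, against 48.9%. In the fit of the 6 parent libraries alone, 66 of 144 members were called, again a smaller share than of all genes. Fewer calls among members than among all genes thus did not hold under every scaling.

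Between K326 and GDH88, 52 members (35.4%) were called, against 15.1% of 35438 genes tested. Of the members, 44 were higher in K326 and 8 lower, whereas 6.56% of all genes were higher and 8.52% lower. Among genes whose mean reached 5 FPKM, 52 of 131 members were called, against 19.3% of all genes. The median difference was 0.12 in the members and -0.06 over all genes. In K326 relative to GDH88, the CAF1 gene was higher by 1.21 ± 0.14 (SE, adjusted p = 0.000243), the U box gene by 1.16 ± 0.15 (adjusted p = 0.000489) and the LEA-5 gene by 1.09 ± 0.16 (adjusted p = 0.00119). The PAR1 gene was higher by 0.65 ± 0.17 (adjusted p = 0.0285) and the NAC gene by 0.36 ± 0.10 (adjusted p = 0.0328). The PAR1 call was lost without the third K326 library, where the difference was 0.46, and without any 1 of the GDH88 libraries, where it was 0.57 to 0.72. Of the fits without 1 parent library, the NAC call was lost without the second K326 library, the third K326 library or any 1 GDH88 library.

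Calls in the 2 crosses were set side by side for the 34933 genes tested in both. The 2 tests did not detect small changes alike. In simulated data, 68 of 100 changes of 0.5 were called for Va116 minus GDH94 and 28 of 100 for K326 minus GDH88. A call in 1 cross only is therefore not by itself a difference between the crosses. The parent listed first, Va116 or K326, was higher than its GDH line in both crosses in 8 members (5.44%), against 0.965% of all genes, and lower in both in 0, against 2.21%. In 7 members Va116 was lower than GDH94 while K326 was higher than GDH88, and the PAR1, NAC, LEA-5 and CAF1 genes were 4 of these. The 7 were 4.76% of the members, against 2.93% of all genes. In 4 members (2.72%, against 2.42% of all genes) Va116 was higher and K326 lower, among them the gene listed at 0 in GDH94. In the members of these opposite groups the higher parent was thus a GDH line in one cross only. No call in either cross was made for 66 members (44.9%), against 48.9% of all genes. The test of the difference between the crosses, (Va116 minus GDH94) minus (K326 minus GDH88), was added after the data were seen. It called 60 of the 147 members (40.8%), against 33.2% of 36573 genes.

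**Figure D4:**
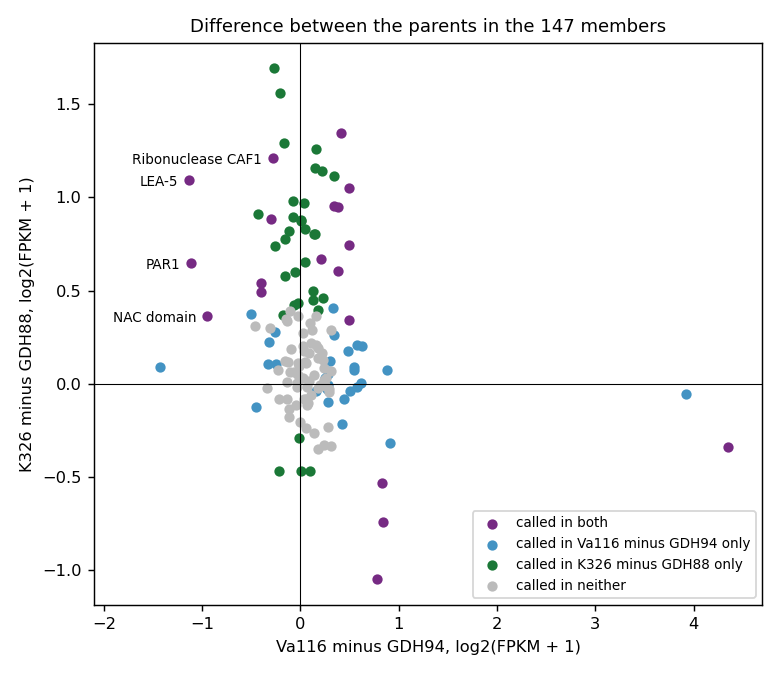
Each point is 1 of the 147 members, placed by the mean of Va116 minus that of GDH94 (x axis) and the mean of K326 minus that of GDH88 (y axis) on log2(FPKM + 1). Colours give the limma calls at an adjusted p under 0.05; 7 members called in both comparisons lie at upper left, among them the 4 genes named, and the rightmost point is the gene listed at 0 in GDH94.

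Between the hybrids, 46 members (31.3%) were called, against 48.8% of 36573 genes tested. Of the members, 22 were higher in Va116×GDH94 than in K326×GDH88 and 24 lower, whereas 38.6% of all genes were higher and 10.2% lower. The median difference was -0.01 in the members and 0.18 over all genes. The L-ascorbate oxidase gene was higher in Va116×GDH94 by 0.50 ± 0.15 (SE, adjusted p = 0.0132), the protein phosphatase 2C gene by 0.44 ± 0.15 (adjusted p = 0.0224), the BYPASS-related gene by 0.43 ± 0.15 (adjusted p = 0.0258) and the glycoside hydrolase gene by 0.50 ± 0.20 (adjusted p = 0.0439). The aldehyde dehydrogenase gene was higher by 0.25 ± 0.10 (adjusted p = 0.046), and the U box gene was lower (-0.42 ± 0.16, adjusted p = 0.0368). None of these calls held in the fit of the 6 hybrid libraries alone, and the 5 genes that were higher in Va116×GDH94 lost their calls with median-ratio scaling. The glycoside hydrolase difference was 0.25 without the first Va116×GDH94 library, and the U box difference was -0.24 without the second K326×GDH88 library.

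The balance of the calls between genotypes moved with the scaling in 2 of the 3 comparisons, and in 1 of them, between the hybrids, its direction turned. For Va116 minus GDH94, members called higher and lower were 34 and 14 as deposited, 63 and 7 with median-ratio scaling, 55 and 8 with quantile normalization, and 27 and 19 with equal sums. For Va116×GDH94 minus K326×GDH88, they were 22 and 24 as deposited, 5 and 47 with median-ratio scaling, 13 and 32 with quantile normalization, and 27 and 22 with equal sums. For K326 minus GDH88 they were 44 and 8 as deposited, 43 and 4, 47 and 7, and 49 and 7 under the same scalings in turn. Of all genes called, the share higher in the genotype named first was, in the same order, 29.2%, 52.5%, 52.1% and 22.2% for Va116 minus GDH94. It was 43.5%, 56.8%, 50.5% and 55.2% for K326 minus GDH88, and 79.1%, 49.4%, 55.3% and 80.8% for the hybrids. The balance over all genes therefore moved with the scaling too. An excess of members higher in Va116 than in GDH94, and in K326 than in GDH88, was thus present under all 4 scalings, while no direction between the hybrids held under all 4. The Va116 excess was not present among calls with an absolute log2 fold change of at least 1, as deposited. There 2 members were higher and 3 lower in Va116, and 11 were higher and 1 lower in K326. Of all genes so called, 25.8% were higher in Va116 and 65.4% in K326. Without the second K326×GDH88 library 32 members were higher and 13 lower in Va116×GDH94, and without the third one 14 were higher and 27 lower. Of all genes called in these fits, 78.8% and 80.8% were higher.

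**Figure D5:**
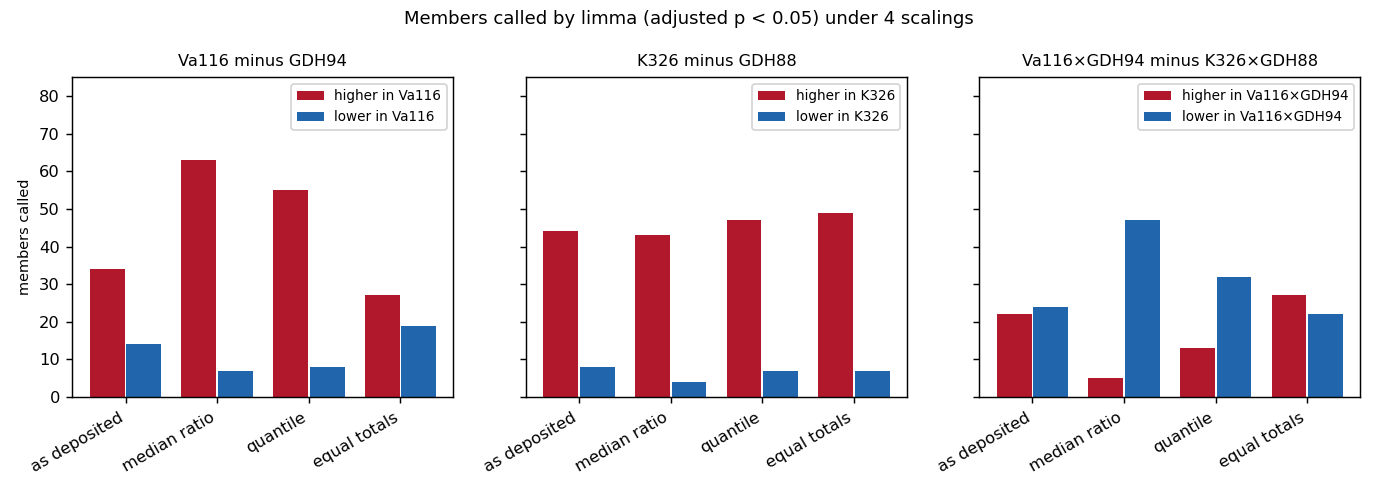
Bars give the number of members called by limma at an adjusted p under 0.05 (y axis) as deposited and under 3 scalings of the libraries (x axis), for Va116 minus GDH94 (left), K326 minus GDH88 (middle) and Va116×GDH94 minus K326×GDH88 (right). Red bars are members higher in the genotype named first and blue bars members lower in it. Under these scalings 27 to 63 members are higher in Va116 and 43 to 49 in K326, each above the number lower. The right panel goes both ways, with 5 against 47 and 27 against 22. Of all genes called, 22.2% to 52.5% were higher in Va116, 43.5% to 56.8% in K326 and 49.4% to 80.8% in Va116×GDH94.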

How the data were processed

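RNA-seq values of 18 leaf libraries were taken from the table of FPKM deposited by the authors, with 1 value per gene and library. Per the labels, HISAT2, StringTie and RSEM were used by the authors; their versions are not given in the sources used here. The authors called differential expression with DESeq2 on counts, which were not used here, so limma on log2(FPKM + 1) took its place. Groups came from the genotype in the labels. All columns were assigned, and 0 library pairs were identical.

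The members and the lists were chosen with earlier results of these data known. The photosynthesis genes left out were read from a picture of the study's heat map, where 1 of the identifiers read had no match in the table. Genes whose mean reached 1 FPKM in some genotype of the fit entered a two-sided test with limma (version 3.58.1, R version 4.3.3). Its functions lmFit, contrasts.fit and eBayes with the trend option were used on the 9 libraries of each cross, or on all 18 for the hybrids, with Benjamini-Hochberg adjustment over all genes tested. Tables and figures were made with Python 3.11.15, pandas 2.3.3, NumPy 2.4.6 and matplotlib 3.10.9. The procedure was tested on simulated data. FPKM hold no read counts per gene, so the counting error is unknown and precision was taken from the 3 replicates.

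Named were the 10 described members with the largest value of the smallest difference, the 5 of highest mean FPKM, up to 3 of each keyword list, the 2 highest and 2 lowest called members of each tested comparison, and of members without a description the one with the largest value of the smallest difference and the one of highest FPKM. The BYPASS-related gene and Nitab4.5_0010112g0010 were named after their values were seen. No sequences are shown, since none of the members matched a sequence table. Alternatives were the pseudocount, 3 scalings of the libraries, limits of the rule, filters, fold limits, the libraries in the fit, a replicate block and each library left out in turn.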

Additional observations from a re-analysis of the deposited data

Results flagged for a closer look

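The difference between the parents itself differed between the crosses in 7 of the described members, by the limma test of (Va116 minus GDH94) minus (K326 minus GDH88) on the log2(FPKM + 1) scale over all 18 libraries, which was added after the data were seen. The LEA-5 gene (Nitab4.5_0010236g0020) had the widest such difference, -2.23 ± 0.22 (SE, adjusted p = 7.94e-07). It was followed by the PAR1 gene (Nitab4.5_0003242g0030) at -1.76 ± 0.22 (adjusted p = 1.55e-05), the CAF1 gene (Nitab4.5_0000657g0010) at -1.49 ± 0.16 (adjusted p = 3.16e-06) and the NAC gene (Nitab4.5_0006008g0010) at -1.31 ± 0.15 (adjusted p = 3.8e-06). In these 4 genes Va116 was below GDH94 and K326 above GDH88, each past the threshold on its own.

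The U box gene (Nitab4.5_0002579g0040) had a difference of -1.01 ± 0.22 (adjusted p = 0.00207), with only K326 minus GDH88 past the threshold on its own. The glycoside hydrolase gene (Nitab4.5_0017675g0010), at -0.77 ± 0.28 (adjusted p = 0.0427), and the RING-type zinc finger gene (Nitab4.5_0000040g0270), at 0.51 ± 0.19 (adjusted p = 0.0426), were near the threshold, and neither parental difference of these 2 genes was past it alone. The cause of these differences was not tested.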

How the results depend on the processing

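The count of 147 members became 62 with libraries scaled to equal FPKM sums, 306 with a limit of 0.3 and 62 with a limit of 0.5. It was 93 with the second K326×GDH88 and first K326 libraries both left out. With 1 library left out at a time it ranged between 99 and 207. With a pseudocount of 0.1, 156 genes met the rule and 128 were shared. With means alone, without the condition on single libraries, 207 genes met it.

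Called members between Va116 and GDH94 were 5 with an absolute log2 fold change of at least 1 (against 4.4% of all genes) and 31 without a filter on low values (against 19.8%). Between K326 and GDH88 they were 12 (against 1.84%) and 31 (against 4.76%) under the same settings. Between the hybrids they were 1 with the fold limit (against 2.86%) and 25 with only the 6 hybrid libraries in the fit (against 33.4%). The ranges over single libraries left out were 36 to 60, 37 to 59 and 34 to 45. Over all genes the shares called in these fits were 35.9% to 48.0%, 8.45% to 19.2% and 42.0% to 50.3%. Fewer libraries or more genes in a fit change the adjusted p values by construction, and the cause of the other changes was not tested.

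With the replicate number as a block, 47, 53 and 46 members were called in the 3 comparisons, against 41.9%, 14.2% and 48.5% of all genes. Correlations of the deviations of same-numbered libraries, taken between the parents of a cross and between the hybrids, were -0.14 to 0.04. They gave no sign of pairing by number, but they cannot show whether libraries shared a plot. No hybrid was compared with its parents in this way. With the block, the NAC gene between K326 and GDH88 (0.36) and the U box gene between the hybrids (-0.42) kept their differences and were not called. For the 16 calls of described members, 253 of 332 alternatives kept direction and call, 79 lost the call and 0 reversed.

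FPKM without read counts give no counting error, so for members near or under 1 FPKM in the parents the precision rests on 3 libraries alone.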
